A study of Homo sapiens with 9 samples.

Results

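The genes described here are 36 genes whose products bring proteins to the endoplasmic reticulum (ER) and insert or trim them there, beside the SEC61 channel itself. They were chosen by name and by role, with earlier results of these data known. They comprise the signal recognition particle (SRP) and its receptor, signal peptidase and signal peptide peptidase, the ER membrane protein complex (EMC), the GET pathway with BAG6, the multipass translocon and the chaperone gene HSPA13. All 36 were found among 57796 gene symbols with transcripts in the deposited tables, and all 36 passed the filter on low counts, which left 15109 genes to test. Messenger RNA of MCF10A-YAP cells was sequenced in 3 groups of 3 libraries lettered A to C. MCF10A is a non-transformed line of human breast epithelial cells, and every group, the control included, also overexpressed a constitutively active YAP, the transcription coactivator that the Hippo pathway restrains. The control group received a non-targeting sgRNA, and the groups TRAM2-KO1 and TRAM2-KO2 each received a different sgRNA against TRAM2, which encodes a protein next to the SEC61 channel. The labels describe antibiotic-selected cells below full confluence and name no single clones. The series design text instead speaks of TRAM2 and YAP overexpression beside an empty vector, which goes against the sample labels used here, and it calls the samples biological replicates without saying how the cultures were kept apart.

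Proteins bound for secretion or for a membrane reach the ER by several routes. SRP binds a signal peptide as it leaves the ribosome, docks at its receptor and hands the chain to SEC61, after which signal peptidase removes the signal peptide. The GET pathway carries proteins whose single membrane anchor lies at the tail end, EMC inserts others of these proteins and the first segments of multipass proteins, and the multipass translocon assembles behind SEC61 for proteins with many membrane segments.

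TRAM2, the targeted gene, stood at 481, 464 and 475 CPM (counts per 1000000 reads) in the control libraries A to C, at 219, 210 and 203 CPM with TRAM2-KO1 and at 216, 212 and 210 CPM with TRAM2-KO2. All knockout libraries lay below all controls, with log2 fold changes of -1.17 (edgeR quasi-likelihood test, Benjamini-Hochberg adjusted p = 4.41e-08) and -1.16 (adjusted p = 4.19e-08).

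Libraries held between 21.7 and 27.6 M estimated reads, and single members between 122 reads (EMC9) and 11660 reads (SRP9) in a library. Of the breast epithelial markers, KRT5 and the luminal keratins KRT8 and KRT18 were abundant, while the basal keratin KRT14 stood at 11.5 to 19.3 TPM. KRT17, another basal keratin, stood at 440 to 535 TPM and ITGA6 at 113 to 158 TPM. The basal gene TP63 was near 0, at up to 0.176 TPM. The luminal genes ESR1, at up to 0.89 TPM, and PGR, at 0 TPM, were low as well. TPM are transcripts per 1000000, a level per unit of transcript length. A list of 7 basal and general epithelial markers (KRT5, KRT14, KRT17, TP63, ITGA6, CDH1 and EPCAM) was summed, of which KRT5 alone made 1149 to 1458 TPM. The sum ranged from 1994 to 2085 TPM in controls, 1851 to 1926 TPM with TRAM2-KO1 and 2233 to 2261 TPM with TRAM2-KO2. ESR1, PGR, KRT8 and KRT18 together ranged from 1760 to 1799 TPM in controls, 1841 to 1979 TPM with TRAM2-KO1 and 1932 to 1961 TPM with TRAM2-KO2. The part of these differences in the results below was not tested. Markers of fibroblasts, endothelial cells and immune cells each summed to at most 3.1 TPM in a library. In bulk RNA, fewer cells of a kind and less RNA per cell cannot be told apart.

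Levels of the 36 genes in control cells spanned 81.5-fold, and the 5 highest were those of SRP9, HM13, SRP14, SPCS2 and SEC11A, all genes of SRP or of the signal peptide proteases. SRP9, which with SRP14 binds the Alu part of the SRP RNA, was highest at 986 ± 13.0 TPM (SD, n = 3), and the EMC subunit gene EMC9 was lowest at 12.1 ± 0.505 TPM. Mean control levels were 51.0 to 986 TPM for SRP subunits, 60.7 and 77.6 TPM for the receptor genes SRPRB and SRPRA, and 57.8 to 169 TPM for signal peptidase. HM13, which encodes signal peptide peptidase, stood at 337 ± 16.6 TPM. EMC genes ranged from 12.1 to 97.2 TPM, GET and BAG6 genes from 21.8 to 86.3 TPM and multipass translocon genes from 57.4 to 123 TPM. Between the EMC genes EMC4 and EMC9 the ratio was 8.03-fold. TPM values depend on how Salmon divided reads among transcripts of unlike length. For SPCS2, the highest signal peptidase gene, the leading transcript was 612 nt long and took 26.5% to 36.5% of its reads, depending on the library.

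**Figure D1:**
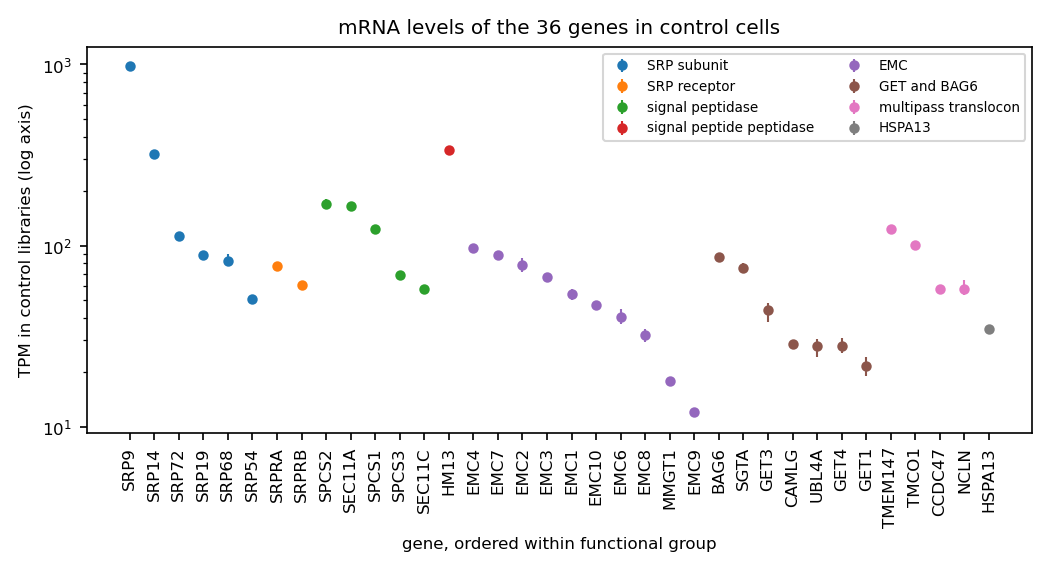
mRNA level of each of the 36 genes in control cells, in TPM on a log axis, ordered within functional groups. Points are means of 3 control libraries and bars run from the lowest to the highest library; SRP9 at 986 TPM and EMC9 at 12.1 TPM mark the ends of the range.

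Each guide was then compared with the control to ask which of these genes change when TRAM2 is targeted. EMC1, which encodes the largest EMC subunit with a big domain in the ER lumen, fell with both guides, and the other 9 EMC genes passed the test with neither. Of all genes tested, 201 (1.33%) fell with both guides, which share their controls. SRPRB, the membrane-anchored subunit of the SRP receptor, rose with TRAM2-KO1. The remaining 34 genes passed with neither guide at an adjusted p under 0.05. With TRAM2-KO1, 1 of 36 genes rose, where 0.761% of all genes tested did, and 1 fell, where 2.2% did (2.96% in either direction). With TRAM2-KO2, 0 rose (1.75% of all genes tested) and 1 fell (2.5%, and 4.25% in either direction). Counted by libraries that did not overlap, 12 of 36 genes lay wholly above the controls with TRAM2-KO1 and 3 wholly below, against 11.9% and 11.1% of all genes tested. With TRAM2-KO2 the counts were 5 and 5, against 11.3% and 12.3%. At an unadjusted p under 0.05 there were 12 of 36 genes with TRAM2-KO1, where 18.6% of all genes tested reached it, and 4 with TRAM2-KO2, where 15% did. DESeq2 gave 1 gene up and 2 down with TRAM2-KO1, and 0 up and 1 down with TRAM2-KO2. Of the 31593 genes in the DESeq2 fit, 2.13% and 2.03% passed in either direction. The median log2 fold change of the 36 genes was 0.05 with TRAM2-KO1 and -0.01 with TRAM2-KO2, against medians over all genes tested of 0.01 and, with TRAM2-KO2, less than 0.01 in size. Both comparisons use the same 3 control libraries.

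**Figure D2:**
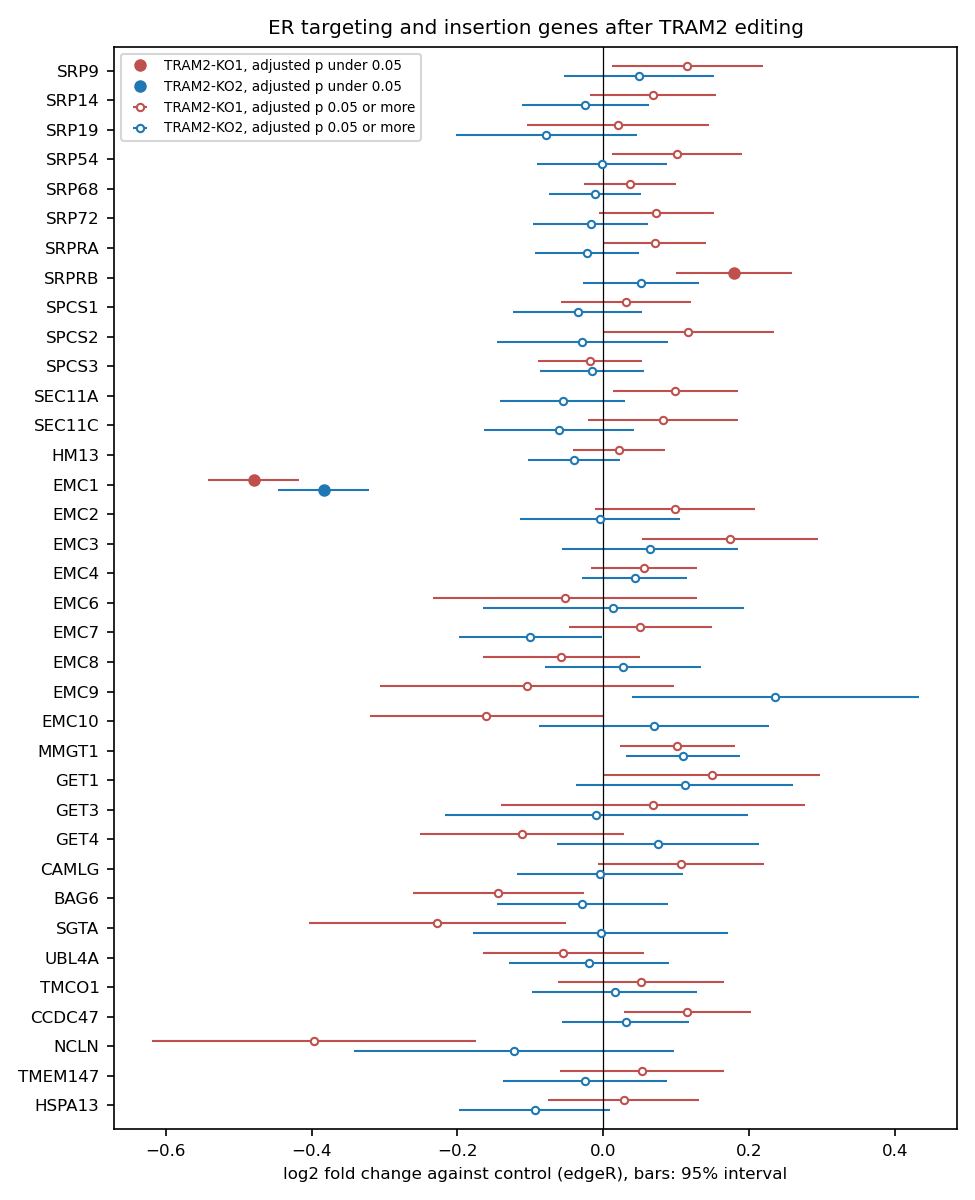
Log2 fold change of the 36 genes against control for TRAM2-KO1 (red) and TRAM2-KO2 (blue), with 95% intervals from edgeR. Filled points had an adjusted p under 0.05: EMC1 at -0.48 and -0.38, and SRPRB at 0.18 with TRAM2-KO1.

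EMC1 mRNA fell by 28.3% under the first guide, TRAM2-KO1, and fell by 23.3% under TRAM2-KO2. EMC1 (ENSG00000127463) lies on the minus strand of chromosome 1, from 19542154 to 19578046 on GRCh37. It stood at 158, 156 and 161 CPM in the control libraries A to C, at 113, 114 and 113 CPM with TRAM2-KO1, and at 119, 123 and 122 CPM with TRAM2-KO2. Neither knockout group overlapped the controls, and libraries within a group differed far less than either knockout group did from the controls. TRAM2-KO1 gave a log2 fold change of -0.48 (SE 0.0283, 95% interval -0.542 to -0.417, adjusted p = 9.51e-06). For TRAM2-KO2 it was -0.38 (SE 0.0282, 95% interval -0.446 to -0.321, adjusted p = 2.99e-05). Both sizes were short of 0.5, the limit that 75 and 98 genes passed as well with TRAM2-KO1 and TRAM2-KO2 (0.496% and 0.649% of all genes tested). EMC1 was past the test in all 16 alternative analyses of TRAM2-KO1, at -0.61 to -0.47, although in 1 of these the group was library A alone, which was assumed to vary like the other groups, and in all 15 of TRAM2-KO2, at -0.40 to -0.37. The libraries of TRAM2-KO2 lay above those of TRAM2-KO1, by 0.10 on the log2 scale (interval 0.0329 to 0.159, adjusted p = 0.114). After the GC trend was taken out of each library, the difference between guides was 0.12 (adjusted p = 0.0198).

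The main EMC1 transcripts each had a lower mean with both guides. ENST00000375208.7 went from 60.6 ± 4.67 CPM in controls (SD, n = 3) to 42.5 ± 2.45 CPM with TRAM2-KO1 and 44.99 ± 2.76 CPM with TRAM2-KO2. ENST00000477853.6 went from 53.9 ± 4.87 CPM to 39.9 ± 3.64 and 40.8 ± 3.49 CPM, and ENST00000375199.7, the most variable of them, from 35.4 ± 7.71 to 26.4 ± 4.15 and 28.9 ± 2.66 CPM. Its libraries overlapped, at 43.1, 35.3 and 27.7 CPM in controls, 31.1, 23.4 and 24.7 CPM with TRAM2-KO1 and 26.8, 28.1 and 31.9 CPM with TRAM2-KO2. A minor transcript, ENST00000494770.6, went from 4.23 ± 0.264 CPM to 0.977 ± 0.897 and 2.95 ± 1.32 CPM. Transcripts were not tested singly. The antisense gene EMC1-AS1 had 3 to 7 reads in a library, at most 0.22% of the EMC1 reads.

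Genes beside EMC1, looked up after its values had been seen, did not pass. Of 5 tested genes within 100 kb that also passed a floor on mean CPM (UBR4, MRTO4, AKR7A2, SLC66A1 and CAPZB), 0 had an adjusted p under 0.05 with either guide. UBR4 and SLC66A1 were only loosely bounded. With TRAM2-KO1 their 95% intervals were -0.29 to 0.452 and -0.406 to 0.0478, and with TRAM2-KO2 -0.295 to 0.446 and -0.227 to 0.22. The intervals of AKR7A2 and CAPZB were narrower. MRTO4, a ribosome biogenesis gene, starts 253 bases from EMC1 and is read in the opposite direction. It stood at 95.6, 95.1 and 98.8 CPM in controls, at 98.2, 103 and 94.96 CPM with TRAM2-KO1 and at 98.1, 92.3 and 98.3 CPM with TRAM2-KO2. Its groups overlapped, with log2 fold changes of 0.03 (95% interval -0.0564 to 0.12) with TRAM2-KO1 and an interval of -0.0915 to 0.0844 with TRAM2-KO2. The 250 bases before the EMC1 start in RefSeq, on GRCh38.p14 at chr1:19251525-19251774 and read on the minus strand, are shown because EMC1 was the member that fell with both guides. Capitals mark a CCAAT box, the letters bound by the factor NF-Y.
EMC1 promoter: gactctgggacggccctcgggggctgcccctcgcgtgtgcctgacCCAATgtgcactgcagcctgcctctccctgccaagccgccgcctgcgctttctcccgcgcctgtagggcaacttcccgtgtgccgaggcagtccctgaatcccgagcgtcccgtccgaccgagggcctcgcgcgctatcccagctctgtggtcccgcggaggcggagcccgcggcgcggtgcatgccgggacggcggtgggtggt
Promoters of 30 of the 36 genes were found in RefSeq, from 250 bases before to 50 after the start. On either strand 14 held CCAAT, 17 held CCACG, a part of the ER stress response element, 13 held TGACG and 5 held ACGTGG. These are 46.7%, 56.7%, 43.3% and 16.7% of the 30, against 35.7%, 37.9%, 25.01% and 9.91% of 27305 promoters. The differences were not tested, and the 27305 promoters were not matched to the members for GC content or expression. ACGTGG holds CCACG on its other strand, so these counts overlap. EMC1 held CCAAT and none of the other 3 motifs.

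The other EMC genes kept closer to the controls. With TRAM2-KO1 their log2 fold changes ran from -0.16 (EMC10, a lumenal subunit) to 0.17 (EMC3, the subunit that inserts membrane segments), and with TRAM2-KO2 from -0.10 (EMC7) to 0.24 (EMC9). The lowest bound of a 95% interval among the 9 genes was -0.32 with TRAM2-KO1 and -0.199 with TRAM2-KO2, so that no interval reached the upper bound of EMC1 with the same guide. EMC4, the most abundant of them per length, stood at 57.9, 57.5 and 58.4 CPM in controls, at 60.0, 61.6 and 59.1 CPM with TRAM2-KO1 and at 59.4, 60.8 and 59.0 CPM with TRAM2-KO2. All 6 knockout libraries of EMC4 lay slightly above the controls, at 0.06 (interval -0.0168 to 0.128) and 0.04 (interval -0.0292 to 0.115), short of the test. All 6 of the EMC gene MMGT1 did so too, at 0.10 (interval 0.0225 to 0.18, adjusted p = 0.171) and 0.11 (interval 0.0306 to 0.188, adjusted p = 0.145). EMC9 and EMC8 are paralogs that occupy the same place in the complex. EMC9 had values of -0.10 and 0.24 and EMC8 of -0.06 and 0.03, with EMC9 resting on the fewest reads of all members.

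**Figure D3:**
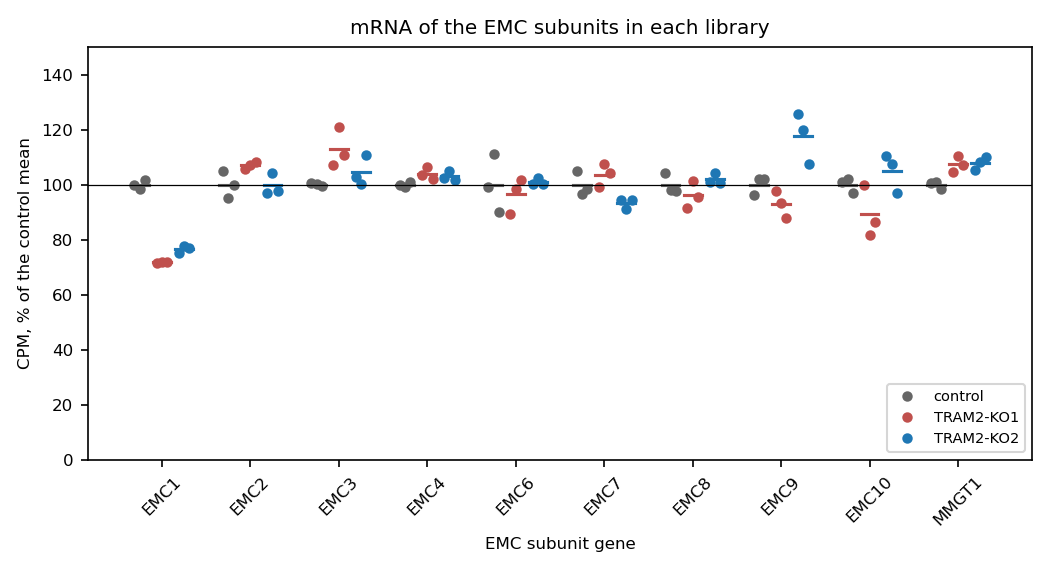
CPM of the 10 EMC subunit genes in each library, as a percentage of the mean of the 3 control libraries; points are libraries and short lines group means. EMC1 lies below the controls in all 6 knockout libraries, while EMC4 and MMGT1 lie above them in all 6. EMC2 and EMC3 lie above them with TRAM2-KO1 only. With TRAM2-KO2 only, EMC9 lies above and EMC7 below the controls. EMC6, EMC8 and EMC10 overlap the controls with both guides.

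SRP and its receptor differed little. Of 6 SRP subunit genes, 0 passed with either guide, with log2 fold changes of 0.02 to 0.11 with TRAM2-KO1 and -0.08 to 0.05 with TRAM2-KO2. SRP9 stood at 411, 416 and 410 CPM in controls, at 430, 487 and 423 CPM with TRAM2-KO1 and at 429, 431 and 419 CPM with TRAM2-KO2. Its knockout libraries lay above the controls, but the differences of 0.11 (interval 0.0116 to 0.218, adjusted p = 0.223) and 0.05 (interval -0.0543 to 0.152) did not pass. SRP54, the GTPase that binds both the signal peptide and the receptor, had 0.10 (interval 0.0118 to 0.19) with TRAM2-KO1 and an interval of -0.0912 to 0.0869 with TRAM2-KO2. A pseudogene, SRP9P1, took at most 2.12% as many reads as SRP9.

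SRPRB stood at 76.7, 79.6 and 77.7 CPM in controls, at 85.7, 92.0 and 87.4 CPM with TRAM2-KO1 and at 81.4, 81.9 and 79.3 CPM with TRAM2-KO2. All TRAM2-KO1 libraries were above all controls, whereas TRAM2-KO2 overlapped them. TRAM2-KO1 gave 0.18 on the log2 scale (SE 0.0358, interval 0.1 to 0.259, adjusted p = 0.0234), TRAM2-KO2 gave 0.05 (interval -0.0276 to 0.131, adjusted p = 0.587), and the guides did not differ past the test (-0.13, adjusted p = 0.0949). The call was lost in 8 of 16 alternatives, among them the removal of any 1 control (adjusted p = 0.121, 0.0655 and 0.092 without control A, B and C), of TRAM2-KO1 B (0.0511) or of C (0.0681), and transcript length offsets (0.343). SRPRA, the subunit that binds SRP, stood at 137, 137 and 143 CPM in controls, at 144, 146 and 148 CPM with TRAM2-KO1 and at 140, 138 and 133 CPM with TRAM2-KO2. Its values were 0.07 (interval -0.0011 to 0.141) and -0.02 (interval -0.0935 to 0.0487).

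Of 5 signal peptidase genes 0 passed with either guide, at -0.02 to 0.12 with TRAM2-KO1 and -0.06 to -0.02 with TRAM2-KO2. SPCS2, an accessory subunit, stood at 61.2, 56.7 and 57.2 CPM in controls, at 60.5, 68.3 and 61.3 CPM with TRAM2-KO1 and at 56.5, 59.4 and 55.9 CPM with TRAM2-KO2. Its groups overlapped with the controls, at 0.12 (interval -0.000836 to 0.234) and -0.03 (interval -0.146 to 0.0885). SEC11A and SEC11C encode alternative catalytic subunits. SEC11A had 0.10 and -0.06 against control, and the guides differed by -0.15 (interval -0.24 to -0.0684, adjusted p = 0.0712), a difference that passed with the GC trend removed (-0.14, adjusted p = 0.0445) and with DESeq2 (-0.15, adjusted p = 0.0331). HM13, the protease that clears cut signal peptides from the membrane, stood at 276, 275 and 266 CPM in controls, at 279, 276 and 275 CPM with TRAM2-KO1 and at 272, 261 and 262 CPM with TRAM2-KO2. Its intervals, -0.0412 to 0.0847 and -0.103 to 0.023, were among the narrowest of the 36 genes.

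Of 7 GET and BAG6 genes 0 passed with either guide. Their values ran from -0.23 (SGTA) to 0.15 (GET1) with TRAM2-KO1 and from -0.03 (BAG6) to 0.11 (GET1) with TRAM2-KO2. BAG6, the scaffold that hands tail-anchored proteins on, stood at 171, 177 and 168 CPM in controls, at 168, 141 and 157 CPM with TRAM2-KO1 and at 169, 170 and 167 CPM with TRAM2-KO2. Libraries B and C of TRAM2-KO1 were low, and A was level with control C. TRAM2-KO1 gave BAG6 a log2 fold change of -0.14 (interval -0.262 to -0.0261, adjusted p = 0.187), and TRAM2-KO2 gave -0.03 (interval -0.146 to 0.088). SGTA, the cochaperone that first holds these proteins, had the same order of TRAM2-KO1 libraries, at 85.3, 64.5 and 76.6 CPM in A, B and C against 86.2 to 90.9 CPM in controls. GET1, which with CAMLG forms the membrane receptor, shares its locus with the readthrough gene GET1-SH3BGR, which took up to 9.07% as many reads.

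Of 4 multipass translocon genes 0 passed with either guide. TMEM147, a membrane subunit, stood at 64.4, 68.1 and 65.9 CPM in controls, at 69.4, 70.7 and 65.8 CPM with TRAM2-KO1 and at 69.9, 63.6 and 61.5 CPM with TRAM2-KO2, with overlapping groups at 0.05 (interval -0.0598 to 0.165) and -0.02 (interval -0.137 to 0.0876). Its antisense gene TMEM147-AS1 took up to 17.4% as many reads, and whether counting used strand is not given in the sources used here. NCLN, which encodes nicalin, the partner of TMEM147 and NOMO, had the largest value short of the test and is given in full for that reason, chosen after its values were seen. It stood at 114, 119 and 116 CPM in controls, at 105, 75.0 and 84.6 CPM with TRAM2-KO1 and at 111, 112 and 98.3 CPM with TRAM2-KO2. All 6 knockout libraries lay below the controls, but TRAM2-KO1 spread widely. TRAM2-KO1 gave -0.40 on the log2 scale (SE 0.1, interval -0.618 to -0.175, adjusted p = 0.0675) and TRAM2-KO2 gave -0.12 (interval -0.341 to 0.0969, adjusted p = 0.665). With the GC trend removed these became -0.15 (adjusted p = 0.00915) and -0.11 (adjusted p = 0.0356), and DESeq2 gave -0.40 (adjusted p = 0.00172) with TRAM2-KO1. NCLN passed in 5 of 16 alternatives with TRAM2-KO1 and in 1 of 15 with TRAM2-KO2. Transcript length offsets gave -0.14 (adjusted p = 0.67) with TRAM2-KO1, and the GC correction with a replicate block gave an adjusted p of 0.0628 with TRAM2-KO2. CCDC47 and TMCO1, of the other subcomplexes, had 0.12 and 0.05 with TRAM2-KO1.

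HSPA13, an HSP70-type protein of the ER, stood at 70.6, 68.0 and 68.6 CPM in controls, at 67.1, 76.1 and 68.3 CPM with TRAM2-KO1 and at 64.5, 64.1 and 65.5 CPM with TRAM2-KO2. TRAM2-KO1 overlapped the controls at 0.03 (interval -0.0758 to 0.131). TRAM2-KO2 lay below them, at -0.09 (interval -0.197 to 0.00953, adjusted p = 0.395), short of the test.

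The values that missed the test were nevertheless bounded. With TRAM2-KO1, the 95% interval lay within 0.5 on the log2 scale in either direction for 33 of 34 genes, all but NCLN, and within 0.25 (an increase of up to 18.9%) for 25. With TRAM2-KO2 the counts were 35 and 32 of 35 genes. No gene rose or fell between TRAM2-KO1 and TRAM2-KO2 by edgeR (1.42% and 0.867% of all genes tested did, 2.29% in either direction and 0.477% also beyond 0.5). An unadjusted p under 0.05 was reached by 16 of 36 (19.9% of all genes tested). DESeq2 gave 1 gene in each direction, where 1.94% of its 31593 genes passed in either direction. All TRAM2-KO2 libraries lay above all TRAM2-KO1 libraries for 4 of 36 genes (9.52% of all genes tested) and below for 10 (11.9%). Of these 36 differences between guides, 35 intervals lay within 0.5 and 29 within 0.25, and EMC9 had the largest value at 0.34 (interval 0.142 to 0.538, adjusted p = 0.0807).

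GC content moved with the TRAM2-KO1 values. Across all genes tested, the Spearman correlation between GC content and the deviation in a library, a description over genes that share a library, was -0.53 and -0.361 in TRAM2-KO1 B and C, 0.182 in TRAM2-KO1 A, 0.143 to 0.254 in controls and -0.0916 to 0.398 with TRAM2-KO2. Among the 10 members with at least 55% GC, 8 had a negative value with TRAM2-KO1, at a median of -0.11, and with the trend removed 4 did, at a median of 0.02. Of the other 26 genes 3 were negative, at a median of 0.07, and 7 after removal, at a median of 0.03. By library, the median deviation of the GC-rich members from the control mean was -0.02 in TRAM2-KO1 A and -0.15 in both B and C. NCLN, SGTA, BAG6, GET4, EMC9 and EMC10 are among these 10 genes and EMC1, at 46.7% GC, is not. EMC1 had -0.48 before and -0.50 after removal. Without TRAM2-KO1 A, 3 genes rose (SRPRB, EMC3 and CCDC47) and 6 fell (EMC1, NCLN, SGTA, BAG6, EMC10 and GET4), in a fit in which 1965 of 15377 genes (12.8%) had an adjusted p under 0.05, against 2.96% with all libraries. By library A alone, assumed to vary like the other groups, 0 rose and EMC1 fell, and 228 of 15988 genes passed.

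**Figure D4:**
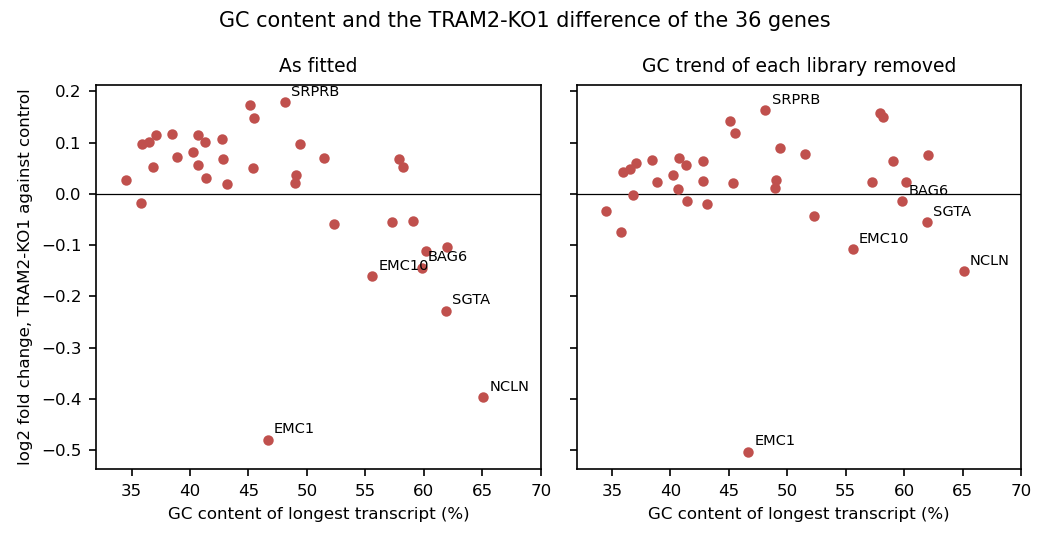
Log2 fold change with TRAM2-KO1 of each of the 36 genes (vertical axis) against the GC content of its longest transcript in percent (horizontal axis), as fitted and after the trend of each library was removed. NCLN goes from -0.40 to -0.15 and SGTA from -0.23 to -0.05, whereas EMC1 stays at -0.48 and -0.50.

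Other genes of ER entry and folding give the setting, in lists chosen with earlier results of these data known. Over all genes tested, 0.761% rose and 2.2% fell with TRAM2-KO1, and 1.75% rose and 2.5% fell with TRAM2-KO2. Of 11 genes of the SEC61 channel and its TRAP partners, 2 rose and 0 fell with TRAM2-KO1, namely SEC62, which assists posttranslational entry, at 0.17 (adjusted p = 0.0314) and TRAM1, the paralog of TRAM2, at 0.15 (adjusted p = 0.0339). With TRAM2-KO2 0 rose and 1 fell, the TRAP subunit gene SSR2 at -0.12 (adjusted p = 0.0449). Of 12 other insertion and processing factors 0 rose, and 2 fell with TRAM2-KO1 and 1 with TRAM2-KO2. These were NOMO1, at -0.46 (adjusted p = 0.000398) and -0.14 (adjusted p = 0.149), and NOMO3, at -0.39 (adjusted p = 0.0132) and -0.40 (adjusted p = 0.00931). NOMO1, NOMO2 and NOMO3 are near-identical copies between which reads cannot be divided with certainty. Their summed level was 334 ± 15.5 CPM in controls, 242 ± 13.9 CPM with TRAM2-KO1 and 284 ± 7.31 CPM with TRAM2-KO2, without overlap between groups. Of 13 ER chaperone genes 0 rose, 7 fell with TRAM2-KO1 and 8 with TRAM2-KO2, at medians of -0.18 and -0.20. PDIA4, a disulfide isomerase, had -0.73 and -0.55, HYOU1, a chaperone of the HSP70 family, -0.46 and -0.38, and HSP90B1, or GRP94, -0.28 and -0.34. HYOU1 stood at 206, 205 and 202 CPM in controls, 149, 147 and 149 CPM with TRAM2-KO1 and 160, 156 and 157 CPM with TRAM2-KO2.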

How the data were processed

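Poly(A) RNA of 9 libraries was sequenced. The authors removed adapters (cutadapt) before transcript quantification in Salmon, with versions, transcript release and genome build not given in the sources used here. The deposited values were expected (estimated) counts per transcript, not normalized, and TPM, which the authors' Salmon run scaled over all transcripts of a library. Salmon's deposited effective lengths were used for length offsets. The labels name a TruSeq RNA kit and the study's methods a stranded TruSeq kit, and the strand setting of the counting is not given in the sources used here.

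The deposited estimated counts were summed by gene symbol through GENCODE release 44 on GRCh37 and rounded. Of 226030 transcripts, 220336 (97.5%) had a gene, holding 98.4% to 98.5% of the reads of each library. The deposited TPM values were summed in the same way and served only to compare levels between genes. The longest quantified transcript gave a gene's GC content. Members and lists of other genes were chosen with earlier results of these data known, so patterns already known from them have no independent support here.

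Counts were fitted with edgeR 4.0.16 (limma 3.58.1, R 4.3.3) by the quasi-likelihood test over all 9 libraries, with the 3 groups as terms, TMM scaling and filterByExpr at a minimum of 10 reads. The 3 two-sided comparisons set each guide against the control, and TRAM2-KO2 against TRAM2-KO1, with Benjamini-Hochberg adjustment over all 15109 genes tested. The procedure was tested on simulated data with known changes. These were drawn without a GC trend, so that test does not cover the trend seen in TRAM2-KO1 B and C. "Rose" and "fell" mean an adjusted p under 0.05 at any size. Adjusted p values are edgeR's unless DESeq2 (1.42.0) is named, and SE and 95% intervals are of the log2 fold change. The common biological coefficient of variation was 5.81%. P values weigh a difference between groups against the spread between these samples, which may be technical in part.

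Values in every library are given, by rule, for members with an adjusted p under 0.05 in any comparison and for the member with the highest TPM of each functional group, other members by ranges, and at most 3 genes per list, taken by smallest p against control. Single other members are named with values chosen after they were seen. GC trends were removed with a loess span of 0.3. Alternatives were other scaling (RLE), DESeq2, no filter or a mean of at least 5 CPM, 2 groups only, a replicate block, GC and length offsets, and leaving out each library. TRAM2-KO1 by library A alone was added after seeing the data. Sequences and positions of the guides are not reported here.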

Additional observations from a re-analysis of the deposited data

How the results depend on the processing

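EMC1 fell with both guides under every alternative run. With TRAM2-KO1, the count of members that rose went from 1 to 0 with transcript length offsets, with only the 2 groups compared and by library A alone, and to 0 to 3 when a library was left out. The count that fell went from 1 to 2 (EMC1 and NCLN) without a filter on low counts, with the GC trend removed, with or without the replicate block, and with DESeq2, and was 1 to 6 when a library was left out. The share of all genes that passed with TRAM2-KO1 changed as well, from 2.96% in the main fit. It was 0.741% with length offsets, 1.96% with 2 groups, 1.93% without a filter and 2.13% with DESeq2. With the GC trend removed it was 3.51%, and 3.25% with the block as well. With TRAM2-KO2 and the GC trend removed, 1 rose (MMGT1, 0.11, adjusted p = 0.0278) in place of 0 and 2 fell (EMC1 and NCLN) in place of 1, while 7.17% of all genes tested passed in place of 4.25%. With the block as well, MMGT1 (adjusted p = 0.0548) and NCLN (0.0628) no longer passed, while 6.49% of all genes tested did. Between the guides, members higher with TRAM2-KO2 went from 0 to 1 without a filter and with DESeq2 (EMC10) and with the GC trend removed, with or without the block (EMC1), and were 0 to 6 when a library was left out. Members lower with TRAM2-KO2 went from 0 to 1 (SEC11A) with the GC trend removed, with or without the block, and with DESeq2, and were 0 to 5 when a library was left out. Of all genes, 2.29% differed between guides in the main fit, 1.84% without a filter and 1.94% with DESeq2. With the GC trend removed 3.81% did, and 2.96% with the block as well. The highest leave-one-out counts, 3, 6, 6 and 5, were all without TRAM2-KO1 A, where 12.8% and 12% of all genes tested passed in the comparisons with control and between guides, against 2.96% and 2.29% with all libraries. The cause was not tested.

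Correlations of deviations from each group's own mean were -0.0869 to 0.0932 over 9 pairs with the same letter and -0.146 to 0.122 over 18 other pairs. These values showed no pairing by letter, but they cannot exclude that libraries with the same letter share a culture or preparation. With the replicate block alone, 1 member rose and 1 fell with TRAM2-KO1, 0 rose and 1 fell with TRAM2-KO2, and 0 differed between guides. Of all genes tested, 2.76%, 3.75% and 1.91% passed in these 3 comparisons. Over all genes tested, genes with an adjusted p under 0.05 and a log2 fold change beyond 0.5 numbered 75, 98 and 72 in the 3 comparisons, 40, 57 and 27 with length offsets. Without TRAM2-KO1 A the first and last were 359 and 316, and by library A alone 45 and 34. Of single-gene values, 1653 kept their side of the threshold, 31 newly passed and 8 (all SRPRB with TRAM2-KO1) no longer passed. Of the 1653, 110 changed sign, in 28 genes, and 0 of these were past the test under either setting. The largest such change was GET4 with TRAM2-KO1, from -0.11 to 0.13 with length offsets. With 3 libraries per group, differences under about 0.1 on the log2 scale lie within the median 95% half-width of 0.109, 0.107 and 0.105 in the 3 comparisons. EMC9, at 122 reads in its lowest library, is among the least certain, and mRNA levels say nothing of protein levels here.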
